A study of Etheostoma caeruleum with 31 samples.

Results

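A set of 144 array probes was low in the testis of male rainbow darters (Etheostoma caeruleum) at 2 points of the year that do not follow each other directly, the post-spawning and the developing stage. The same probes were high in spawning, recrudescence and pre-spawning fish. They were chosen by the stage means of the measured values, out of 8621 probes of the main probe series that stood well above background on at least 5 of 31 arrays. A probe was a member if its lowest mean among spawning, recrudescence and pre-spawning lay at least 1 log2 unit (2-fold) above its higher mean in post-spawning and developing. Its post-spawning mean minus its developing mean also had to lie above -3 and below 0.7 log2 units. The size of the gap, and everything measured on the same contrast of stages, is therefore a description and carries no test.

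All fish were adult males caught by electrofishing in the Grand River in Ontario, at a site that the labels call clean, and no treatment is named for any group. The spawning group was collected in month 5 of 2011 (7 arrays) and the post-spawning group in month 8 of 2011 (6 arrays). The recrudescence group followed in month 10 of 2011 (5 arrays), the developing group in month 1 of 2012 (6 arrays) and the pre-spawning group in month 3 of 2012 (7 arrays). Total RNA of testis was labelled with Cy3 and hybridised to 1-colour Agilent oligonucleotide arrays, with the arrays of a stage labelled as biological replicates. Each stage is 1 collection, so that reproductive stage, season and collection cannot be told apart.

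The rainbow darter breeds once a year, in spring. In seasonally breeding fishes the testis regresses after breeding, when the remaining sperm are resorbed and mostly spermatogonia and the supporting somatic cells are left. In recrudescence spermatogonia divide and enter meiosis again, and spermatocytes, spermatids and sperm come to fill the cysts that Sertoli cells form. Leydig cells make the androgens that sustain this growth. The RNA of a whole testis is a mixture of all these cells, and in such bulk tissue fewer cells of a type and less RNA per cell cannot be told apart. The probes carry no gene names in the files used here, so that the labelled tissue and its cell types could not be checked against defining markers, and the members are described by their behaviour. Probe sequences were not used here.

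Values are log2 intensities relative to the 75th percentile of the same array, called levels below, so that a level of 0 equals that percentile and 1 unit is a 2-fold difference. The 75th percentile itself ranged from 2734 to 5093 intensity units over the 31 arrays, and 78% to 95.8% of probes were well above background on an array. No spot was saturated. Arrays of the same stage correlated at 0.943 to 0.985 with each other across the tested probes, so that no pair held identical values.

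The members covered a wide range of levels. Their stage means ran from -6.37 to 4.95 in spawning testis, with a median of -0.61. The median was -3.62 in post-spawning and -0.86 in recrudescence testis. It was -2.28 in the developing and -0.86 in the pre-spawning stage. The median level over all 8638 tested probes, in contrast, stayed between -2.33 and -2.07. In spawning testis the median member stood at the 69.8th percentile of the tested probes, in post-spawning testis at the 29.8th and in developing testis at the 48.8th. The gap that defined the members was 1.00 to 2.87 log2 units with a median of 1.20, or 2.3-fold. In 30 members it reached 1.5, and in 4 it reached 2. Just inside the limit of 1 lay members with gaps of 1.0026 and 1.0045, and just outside it probes with gaps of 0.9985 and 0.9982. Without the bounds on post-spawning minus developing 166 probes would have qualified. Of the 22 probes that the bounds set aside, 20 lay at or below the lower one, the nearest at -3.0368 beside a member at -2.9466, and 2 at or above the upper one. The highest member stood at 0.1281.

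**Figure D1:**
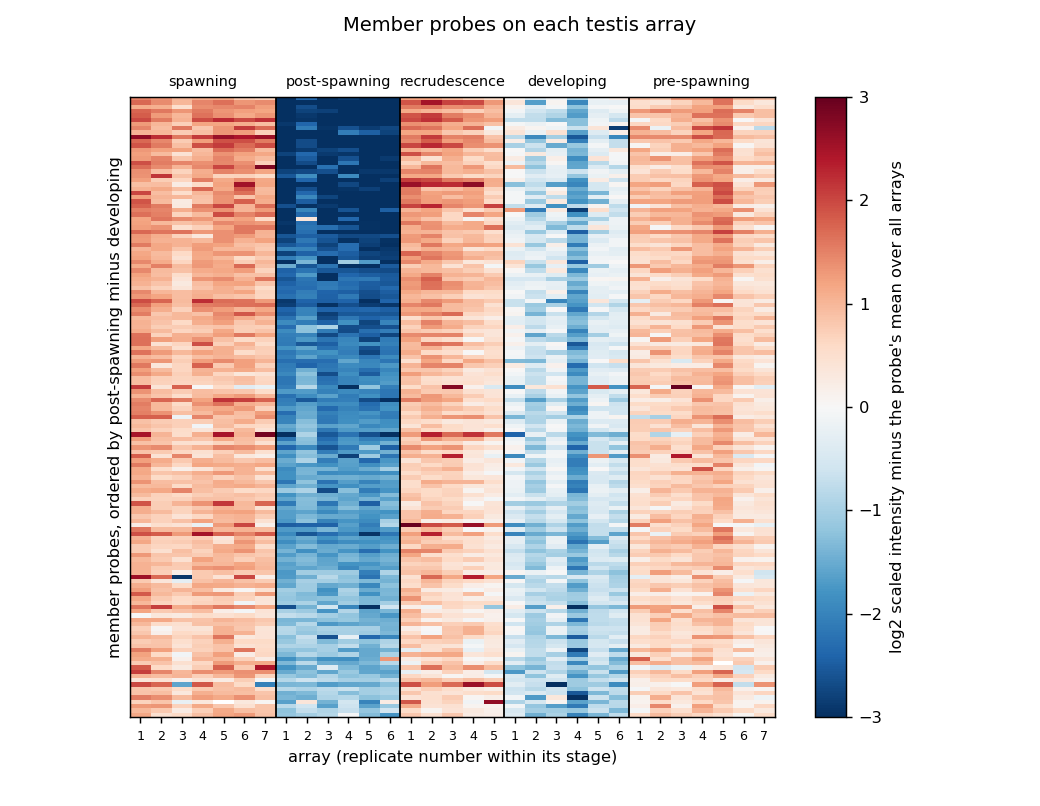
Each row is 1 of the 144 member probes and each column 1 of the 31 testis arrays, numbered within its stage; colour gives the log2 scaled intensity minus the probe's own mean over all arrays, with the scale ending at -3 and 3. Post-spawning columns are the darkest blue, developing columns are paler blue with replicate 4 darker than the other 5, and the 3 remaining stages are red.

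Following the year from spawning, the members went down, up, down and up again. From spawning to post-spawning the median member fell by 2.93 log2 units, or 7.64-fold, with a range over members of 2.22-fold to 84.4-fold. From post-spawning to recrudescence the median member was higher by 2.74 (6.66-fold), which brought it back to near its spawning level. From recrudescence to developing it fell by 1.42 (2.67-fold), and from developing to pre-spawning it was higher by 1.39 (2.63-fold). Over all tested probes the median differences of these 4 steps were small and of the opposite sign: 0.30, -0.35, 0.16 and -0.14 log2 units. Relative to the median of all tested probes the members therefore moved further than on the scale of the 75th percentile.

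The loss in post-spawning testis was deeper than that in developing testis. Post-spawning minus developing had a median of -1.28 over the members, and post-spawning was the lower stage in 140 of 144. Over all tested probes the median was 0.13, and 43.1% lay below 0. The rule bounded this difference at -3 and 0.7, which leaves more room for lower post-spawning levels, and the difference is given as a description. With post-spawning set at 0% and the lowest of the 3 high stages at 100%, the developing level of the median member stood at 51.4%, with quartiles of 35% and 60.8%. In 18 members it stood below 25%, close to the post-spawning level, in 52 between 25% and 50%, and in 74 at 50% or above. Without developing replicate 4, which is described below, the median was 59.3%.

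Most members remained measurable at their lowest. On every array of the stage, 119 of 144 members were well above background in post-spawning testis and 130 in developing testis, against 142 in recrudescence and 140 each in the spawning and pre-spawning stages. Of the members, 2 were not well above background on any post-spawning array, and for these the spawning level was at least 6.52-fold and at least 14.6-fold above the post-spawning level, taken against the dimmest signal that counted as well above background. With both at these bounds the median fall from spawning to post-spawning was 2.90 log2 units.

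The separation of the stages held across most single arrays. Every post-spawning array lay below every array of spawning, recrudescence and pre-spawning testis in 137 members, against 15% of all tested probes. Every developing array lay below those 19 arrays in 106 members, against 4.46% of the tested probes. Both conditions were met by 103 members, against 3.44%. Every post-spawning array lay below every developing array in 62 members, against 16.6%. These counts come from the contrast that chose the members, and nothing is read from their distance to the shares of all probes. On each of the 4 slides taken alone, the lowest of the high stages present exceeded post-spawning in 141 to 144 members and developing in 135 to 144. The same arrays and contrast chose the members, so that these counts too are a description. No share of all tested probes was taken for them.

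The per-array medians show the same order. The median of the members on an array averaged -0.52 ± 0.16 (SD, n = 7) in spawning and -3.56 ± 0.17 (SD, n = 6) in post-spawning testis. It averaged -0.79 ± 0.26 (SD, n = 5) in recrudescence and -2.25 ± 0.41 (SD, n = 6) in developing testis, and -0.85 ± 0.27 (SD, n = 7) before spawning. The post-spawning arrays ranged from -3.72 to -3.28 and the developing arrays from -3.02 to -1.84, so that these groups did not overlap with each other. The spawning arrays, at -0.78 to -0.32, overlapped with both recrudescence, at -1.12 to -0.59, and pre-spawning, at -1.16 to -0.40.

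**Figure D2:**
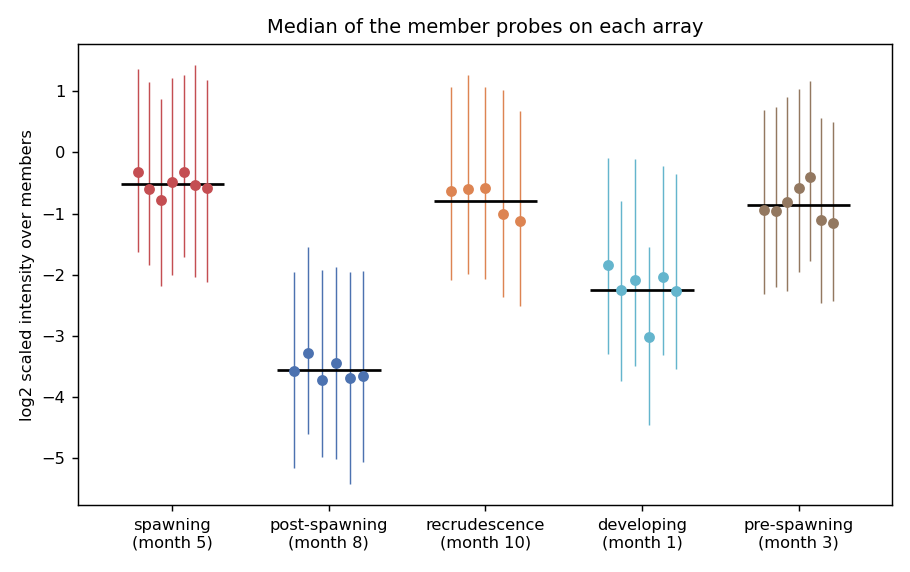
Each point is the median log2 scaled intensity of the 144 members on 1 array, its bar spans the quartiles over members, and the black line is the mean of the arrays of a stage. Post-spawning medians lie between -3.72 and -3.28 and developing medians between -3.02 and -1.84, below all arrays of the other 3 stages.

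How far the choice of members depended on any 1 fish was examined by leaving out each array in turn, choosing the probes again, and reading the array left out. This was added after the data had been seen. For a post-spawning array left out, 142 to 146 probes were chosen, and 99.3% to 100% of them lay on that array below the lowest of the 3 high stage means, at a median difference of -2.73 to -2.12 log2 units. For a developing array left out, 84 to 196 probes were chosen, and 95.4% to 100% of them lay below, at a median difference of -2.18 to -0.70. The -2.18 belongs to replicate 4 with its 84 probes, and the other developing arrays ran from -1.37 to -0.70. At least 1 unit separated 96.5% to 100% of the probes on the post-spawning arrays, but 21.9% to 96.4% on the developing arrays. Replicate 4 again gave the highest developing share, and the other developing arrays ran from 21.9% to 76.8%. Arrays of the high stages left out had 97.4% to 100% of the probes above the higher of the 2 low stage means. There, at least 1 unit separated 83.3% to 99.3% of the probes on spawning and 61.7% to 94.4% on recrudescence arrays. On pre-spawning arrays it was 55.6% to 95.5%. Beside these shares, none over all tested probes was taken.

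The members were lowest on 1 of the developing arrays, which had itself entered the mean that chose them. On developing replicate 4 the median of the members was -3.02, while the other 5 developing arrays lay between -2.26 and -1.84. It was the lowest of the 6 developing arrays in 120 of 144 members, and in 98 members it was nearer to the post-spawning mean than to the mean of the other 5 developing arrays. On those others this held for 8 to 18 members. In 78 members replicate 4 lay below the highest post-spawning array. These counts were raised by the part of this array in the choice, and no share of all tested probes was taken for them. Without this array the rule picked 84 probes, 81 of them among the 144, and replicate 4, now independent of the choice, differed from the other developing arrays by a median of -0.99 on those 84. The medians over these 84 probes were closer together, at -3.37 on replicate 4 and from -3.02 to -2.39 on the other 5. The other 5 had entered the mean that chose these probes, which favours low levels on them. The developing mean of the members' array medians was -2.09 ± 0.18 (SD, n = 5) without replicate 4.

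This array also lay at an end of the developing stage in measures over all probes. Its median deviation from the developing mean over all tested probes was 0.10 log2 units, the largest in size of the 31 arrays. Pre-spawning replicate 6 deviated from its own stage mean by 0.090. Its 75th percentile of 3212 intensity units was the lowest of the developing arrays, which otherwise ranged from 3489 to 5093, and 86.6% of its probes were well above background, against 87.1% to 95.2% on the others. Both values lay within the range of all 31 arrays, which began at 2734 intensity units and at 78%. The part of these measures in the low member levels was not tested. A set of 102 probes was chosen by the same rule with its signs turned, as raised in post-spawning and developing testis. Its median difference from the mean of the other developing arrays was 0.65 on replicate 4 and 0.67 on replicate 6. It was 0.31 on replicates 2 and 5, but -0.81 on replicate 1 and -1.001 on replicate 3. Each of these arrays had entered the developing mean that chose the set, so that these differences are a description. Across the 8387 other tested probes, the deviation of replicate 4 from the other 5 developing arrays correlated with post-spawning minus those 5 at r = 0.25, against -0.18 to 0.20 for the other 5 developing arrays treated alike. Probes are not independent, and both differences share the same 5 arrays, so that these r are given as descriptions.

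**Figure D3:**
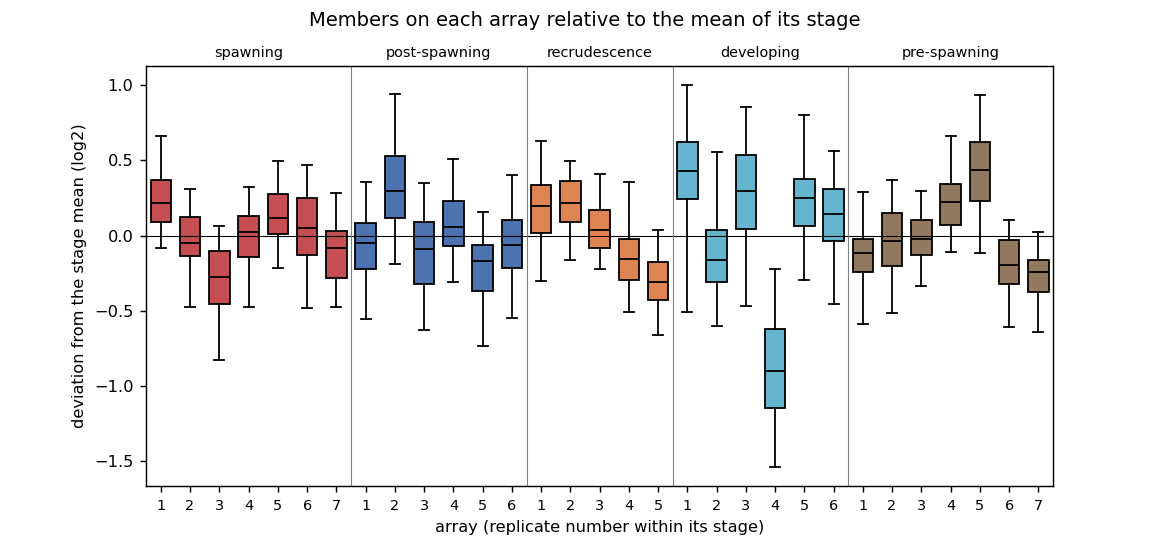
Boxes give the quartiles and whiskers the 5th to 95th percentile, over the 144 members, of the deviation of each array from the mean of its stage in log2 units. The developing replicate 4 box lies lowest with a median of -0.90, and on most arrays the members deviate together, above or below 0.

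The members also moved together between fish of the same stage, a measure that the rule did not use directly. Deviations from the stage means over all 31 arrays had a median correlation of 0.50 between pairs of members, and 97.4% of pairs were above 0. Pairs of all tested probes had a median of 0.021, with 53.2% above 0. In the 19 arrays of spawning, recrudescence and pre-spawning testis the median was 0.45 for members and 0.025 for tested probes. Over the 30 arrays of all stages without developing replicate 4 it was 0.37 for members and 0.020 for tested probes. On pre-spawning replicate 5 the members were high, with 133 of 144 above the pre-spawning mean, while 53.1% of tested probes lay below it. On pre-spawning replicate 7 the members were low, with 134 below that mean, against 56% of tested probes. Recrudescence replicate 5 and spawning replicate 3 were low in 132 and 130 members, against 43.6% and 47.9% of tested probes. Other arrays were near even, such as spawning replicate 4 with 67 members below and 77 above. All probes of an array share 1 extract, hybridisation and scaling, and the correlations are descriptions.

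Fish-to-fish spread was widest in the developing stage, but replicate 4 of that stage had entered the mean that chose the members. The spread that includes this array is therefore given as a description. The median SD over developing arrays was 0.55 for members and 0.29 for all tested probes, and it was highest in that stage for 103 members (71.5%), against 25.7% of tested probes. Without replicate 4 the developing SD was 0.36 for members and 0.26 for tested probes. In the 4 other stages the members' median SD was 0.28 to 0.33 and that of the tested probes 0.26 to 0.28.

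Whether the members returned to the same level in spawning, recrudescence and pre-spawning testis was tested with limma, in 1 fit of all 31 arrays and 8638 probes, with Benjamini-Hochberg adjustment and a threshold of 0.05. The rule set no direction among these 3 stages, but it removed probes low in any of them, which limits how far they can differ. Of the 144 members, 105 passed in none of the 3 contrasts and 39 (27.1%) in at least 1, beside 42.5% of all tested probes. Differences under 0.5 log2 units were found for 80.6% of members between spawning and pre-spawning and for 75% in each of the other contrasts, against 85.3%, 72.5% and 69% of all tested probes.

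Spawning testis had the highest levels of the 3. In 89 members spawning was the highest of these stages, in 37 recrudescence and in 18 pre-spawning. Among all tested probes the shares were 30.9%, 39% and 30.1%. Spawning minus pre-spawning had a median of 0.23 over members and 0.0088 over all tested probes, and 122 of 144 members were higher in spawning. The difference lay below 0 in 22 members, against 48.7% of all tested probes. Of the 144 members 16 (11.1%) were called higher in spawning, beside 5.07% of all tested probes. None was called lower by limma, with or without array weights, beside 4.39% of tested probes. In a few other alternatives 1 member was called lower, such as with normexp background or without pre-spawning replicate 1. At an unadjusted p under 0.05 there were 38 higher and 1 lower, for which no share of all tested probes was taken. The members moved together between fish, so that these are not independent counts. Among the 16 called members the difference ran from 0.39 to 1.30 log2 units.

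This difference depended on which arrays were compared. Without slide 2, which held 2 spawning and 3 pre-spawning arrays, no member was called and the median was 0.096. Within that slide the median was 0.50 and 140 of 144 members were higher in spawning. Within slides 1, 3 and 4 the medians were 0.011, 0.13 and 0.10, with 74, 97 and 94 members higher. Over all tested probes the medians were 0.092 within slide 2 and -0.10, 0.053 and -0.019 within slides 1, 3 and 4. The count of called members was 7 without slide 1 and 8 without slide 4. It was 8 or 9 without pre-spawning replicate 6 or 7 or without spawning replicate 1, 5 or 7. Fewer arrays entered these fits, and the calls among all tested probes were not counted for them. A difference between slides themselves, with stage held, was called in 0 of 144 members by limma's F test, beside 0% of the tested probes. This test covers a shift of a slide common to all stages, and not a stage difference that varies between slides. At an unadjusted p under 0.05 slide differed in 4 members (2.78%) and in 4.93% of tested probes.

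Recrudescence levels lay mostly a little below spawning levels. Recrudescence minus spawning had a median of -0.20 over members and -0.0039 over all tested probes, with 104 members lower and 40 higher. Of all tested probes 50.45% were lower. In recrudescence 4 members (2.78%) were called higher, beside 14.8% of tested probes, and 16 (11.1%) lower, beside 13.1%. Within slides 1, 2 and 3, which hold both stages, 89, 90 and 87 members were lower and the medians were -0.13, -0.15 and -0.10. Over all tested probes these medians were 0.063, -0.046 and -0.016. The total of 20 calls became 32 without developing replicate 4, which enters only the estimate of spread and the filter. It was 13 without recrudescence replicate 4 and 9 without recrudescence replicate 5. Calls among all tested probes were not counted in these fits, so that a general change cannot be told from one in the members.

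Recrudescence and pre-spawning testis lay close together over the members. Recrudescence minus pre-spawning had a median of 0.026, with 73 members higher and 71 lower. Of all tested probes 49.4% were lower. In recrudescence 17 members (11.8%) were called higher, beside 16.7% of tested probes, and 2 (1.39%) lower, beside 13%. On slide 2 recrudescence was higher in 113 members with a median of 0.39, while on slide 1 it was lower in 85 with a median of -0.12 and on slide 3 the median was 0.023. Without slide 2 the calls fell from 19 to 6, and without developing replicate 4 they numbered 32. For these fits too, calls among all tested probes were not counted. These contrasts share their arrays in pairs. Of the members, 4 (2.78%) were called higher in recrudescence than in both spawning and pre-spawning testis, beside 9.76% of tested probes. Lower calls in pre-spawning than in both others were made for 6 (4.17%), beside 2.34%, and higher calls in spawning than in both others for 5 (3.47%), beside 1.48%.

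**Figure D4:**
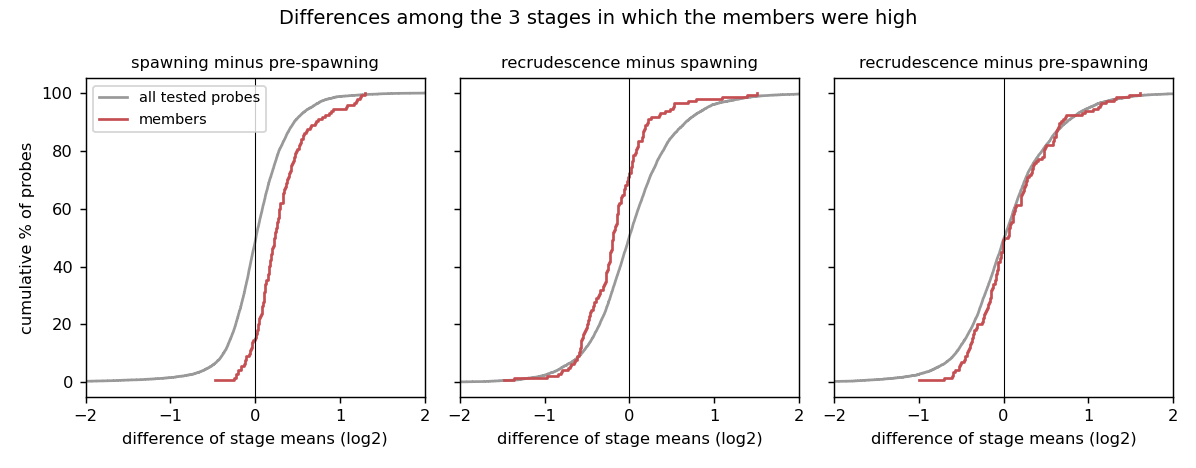
Cumulative share (%) of the 144 members (red) and of all 8638 tested probes (grey) by the difference of stage means in log2 units, for the 3 contrasts among the stages in which the members were high. The members' curve lies right of the grey one for spawning minus pre-spawning (medians 0.23 and 0.0088), left of it for recrudescence minus spawning (-0.20 and -0.0039) and near it for recrudescence minus pre-spawning.

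The 4 probes described in full are the 2 with the largest gap among members well above background on every array, and those with the largest called rise and fall from spawning to recrudescence. The latter had to be well above background on each array of these stages. Their genes are not named in the files used here.

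The probe GT_EA516_un_as_sp_3217 had the largest gap. Its spawning levels ran from -0.082 to 1.00 with a median of 0.76, and its post-spawning levels from -6.31 to -4.73 with a median of -5.90. On the 5 recrudescence arrays it measured -0.11, 0.42, -0.19, -0.14 and -0.83. In developing testis it ran from -4.22 to -2.35 with a median of -3.13, and in pre-spawning testis from -0.79 to 0.27 with a median of -0.25. All post-spawning arrays lay below all developing arrays, and these below all arrays of the other stages, which overlapped among themselves. Its mean was 84.4-fold lower in post-spawning and 13.9-fold lower in developing than in spawning testis. Spawning exceeded pre-spawning by 0.92 ± 0.27 (SE; limma adjusted p = 0.0282) and recrudescence minus spawning was -0.81 ± 0.29 (SE; adjusted p = 0.0372). Both calls were lost in some of the alternatives, the first in 8 of 47 with an adjusted p of up to 0.258, and the second in 14 of 47 with one of up to 0.296.

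The probe GT_EA516_an_as_xh_97 had the second largest gap of the members well above background on every array. Its spawning levels ran from -1.11 to 0.091 with a median of -0.59, and its post-spawning levels from -5.33 to -4.30 with a median of -4.62. On the 5 recrudescence arrays it measured -1.17, -0.057, -1.45, -1.17 and -1.88. In developing testis it ran from -4.37 to -3.10 with a median of -3.94, and in pre-spawning testis from -2.59 to -1.15 with a median of -1.71. The post-spawning and developing arrays overlapped, both lay below all other arrays, and no pre-spawning array reached the lowest spawning array. The mean was 17.2-fold lower in post-spawning and 9.65-fold lower in developing than in spawning testis. Spawning exceeded pre-spawning by 1.25 ± 0.24 (SE; limma adjusted p = 0.00254), with an adjusted p of 0.00109 to 0.0533 over 47 alternatives, the highest of them without slide 2. Recrudescence minus spawning was -0.55 ± 0.27 (SE; adjusted p = 0.131), which did not pass. Recrudescence exceeded pre-spawning by 0.70 ± 0.27 (SE; limma adjusted p = 0.0482), a call lost in 30 of 47 alternatives.

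The probe GT_EA516_an_as_sp_268 showed the largest called rise from spawning to recrudescence among members well above background on each array of both. A member that missed this limit on 2 spawning arrays had a larger called rise, of 1.504. Its spawning levels ran from -3.48 to -1.20 with a median of -2.80, and on the 5 recrudescence arrays it measured -1.15, -1.45, -1.49, -1.05 and -2.64. The 2 groups overlapped, through spawning replicate 6 and recrudescence replicate 5. In post-spawning testis it ran from -7.48 to -6.46 with a median of -7.30, and was well above background on 2 of the 6 arrays. In developing testis it ran from -5.70 to -3.68 with a median of -4.73, and in pre-spawning testis from -3.31 to -1.80 with a median of -2.47. Recrudescence minus spawning was 1.095 ± 0.35 (SE; limma adjusted p = 0.0205). The call was lost without recrudescence replicate 1 (adjusted p = 0.0545), without recrudescence replicate 4 (adjusted p = 0.0635), without slide 2 and without slide 3, where the difference was 0.64 (adjusted p = 0.349). Recrudescence also exceeded pre-spawning, by 0.96 ± 0.35 (SE; limma adjusted p = 0.0398), a call lost in 14 of 46 alternatives.

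The probe GT_EA516_an_as_sp_2250 showed the largest called fall from spawning to recrudescence under the same limit. Its spawning levels ran from -2.74 to -1.75 with a median of -2.41, and on the 5 recrudescence arrays it measured -3.65, -3.93, -3.22, -3.37 and -4.99. No recrudescence array reached the lowest spawning array. In post-spawning testis it ran from -6.91 to -4.39 with a median of -5.53, in developing testis from -7.20 to -3.61 with a median of -5.08, and in pre-spawning testis from -3.66 to -1.93 with a median of -2.62. It was well above background on 5 of 6 arrays in each of the low stages. The developing arrays overlapped with post-spawning, recrudescence and pre-spawning arrays and spread with an SD of 1.33. Post-spawning arrays also overlapped with recrudescence, through recrudescence replicate 5. Recrudescence minus spawning was -1.47 ± 0.48 (SE; limma adjusted p = 0.0228). The call was lost without recrudescence replicate 5 (-1.18, adjusted p = 0.0862), without slide 1 and without slide 2.

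**Figure D5:**
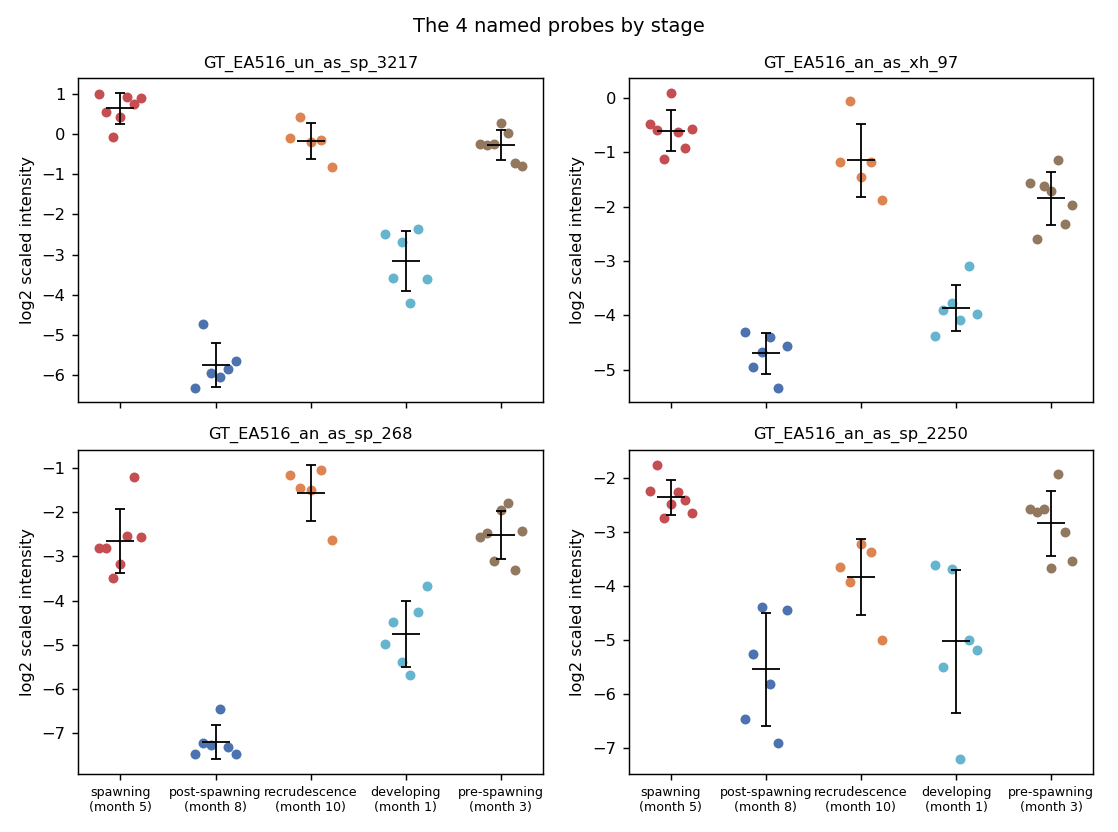
Each panel gives the log2 scaled intensity of 1 named probe on all 31 arrays by stage; points are arrays and black marks the mean ± SD. All 4 are low in post-spawning testis. Developing and post-spawning arrays overlap for the probe ending in 97 and for that with the largest called fall from spawning to recrudescence.

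The names of the probes hold fields that the sources used here do not explain, and the rule did not use them. The entry "an" was carried by 116 members (80.6%) and by 72.1% of the 8621 probes from which members were drawn. The entry "s" was carried by 115 members (79.9%), against 69.2%, and "sp" by 101 (70.1%), against 67.2%. Probes with 2 spots made up 117 members (81.3%), against 69%, and the 2 spots of a member lay a median of 0.075 log2 units apart, close to the 0.078 of all tested probes. Among the members 4 pairs carried consecutive numbers under the same fields and correlated at 0.86 to 0.99 over the 31 arrays, where the rule gave all pairs of members a median of 0.91. In deviations from the stage means these 4 pairs correlated at 0.52 to 0.89, and the median over all pairs was 0.49, with flagged spots kept in both measures. Another 87 tested probes with a number next to a member's were no members. Their median correlation with that member was 0.074, and 10 of them reached 0.9. The median over 2776 consecutive pairs of all such tested probes was 0.18. The neighbours counted here had failed the rule, which sets aside those most like a member, so that these medians do not compare like sets. The sources used here do not say whether such neighbours share a transcript, so that the number of genes behind the 144 probes is not known.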

How the data were processed

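The deposited scanner files give an intensity per spot, produced by Agilent Feature Extraction 10.7.1.1 and background-corrected within the array, per the file headers. The authors' deposited table holds log2 values of the same arrays, which rank spots as the scanner intensities do (lowest Spearman rho 1). The sources used here do not state its normalisation, and it served as an alternative. Stages were taken from the labels; slides, which coincide with scans, from the array barcodes.

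Here log2 of the processed intensity was taken minus the log2 75th percentile of the array, and spots of a probe were averaged. Outlier-flagged spots (426 over all arrays) were left out of levels and tests but kept in the rule, which names no flag. A probe counted as well above background where at least 0.5 of its spots did. Tests used limma 3.58.1 in R 4.3.3 (lmFit, eBayes) on 8638 probes. The fit was checked on simulated data with independent probes, which does not cover counts of calls among probes that move together. The number of arrays limits the precision. Where every spot of a probe was flagged on an array, its value there is missing, and otherwise the remaining spots were averaged. The SE is that of the fit.

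The members and lists were chosen with earlier results of these data known. Probes were named by a rule: the 2 largest gaps among members well above background everywhere, and the largest called rise and fall from spawning to recrudescence among members well above background on each array of both stages. The planned gene and cell type lists could not be used without gene names. Alternatives covered scaling (median, quantile), normexp background with an offset of 50, the authors' table, filters, blocks, array weights, slides and single arrays.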

Additional observations from a re-analysis of the deposited data

Results flagged for a closer look

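On developing replicate 4 the median of the members was -3.022, set apart from the other 5 developing arrays, of which the nearest was at -2.258. The gap took up 0.644 of the range of the 6 arrays, above Dixon's 95% critical value. The members were chosen partly by this array, and on the 84 probes picked without it the gap took up 0.356 of the range, which is below that value. Those 84 were in turn chosen for low levels on the other 5 arrays, which narrows the gap, so that neither gap is free of the choice. Over the 84 probes replicate 4 differed from the other developing arrays by a median of -0.99. The probe GT_EA516_an_as_sp_268 stood apart on 3 arrays: at -6.457 on post-spawning replicate 4, at -2.636 on recrudescence replicate 5 and at -1.199 on spawning replicate 6. The post-spawning value belongs to a stage where the probe was well above background on 2 of 6 arrays. Of 25 groups of arrays examined 4 held such a value; chance gives about 1 in 20.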

How the results depend on the processing

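The number of members, 144, was decided more by the developing arrays than by the others: with single arrays left out it ran from 84 to 196, the lowest without developing replicate 4. It was 71 without slide 3 (63 shared), which held that array, 235 without developing replicates 1 and 3 (138 shared) and 30 with a gap of at least 1.5. It stayed within 1.5 times of 144 in the other alternatives, from 97 with normexp background (88 shared) to 205 without slide 2 (139 shared), with 171 in the authors' table (129 shared). The cause of these shifts was not tested. Members called between spawning and pre-spawning numbered 16, and 25 with array weights, 7 without slide 1, 0 without slide 2 and 8 without slide 4, with 8 to 23 on leaving out single arrays. Members called between recrudescence and spawning numbered 20, and 42 with array weights, 10 without slide 1, 12 without slide 2 and 11 without slide 4, with 9 to 32 on leaving out single arrays. Members called between recrudescence and pre-spawning numbered 19, and 34 with array weights and 6 without slide 2, with 14 to 32 on leaving out single arrays. Leaving out a slide or an array leaves fewer arrays in the fit. Calls among all tested probes were not counted in the alternatives, so that a general change in calls cannot be told from one in the members. Over the 81 members that the rule also picked without developing replicate 4, chosen after seeing the data, the calls were 15, 13 and 8, from fewer members. A replicate block by title number gave 13, 21 and 18 calls, and one by description number 14, 15 and 18. The samples share only a number: deviations of arrays with the same title number correlated with a median of -0.0027, and 2 of 31 arrays correlated best with their own number. The median difference kept its sign in 48 of 48 alternatives for spawning minus pre-spawning (0.096 to 0.28) and for recrudescence minus spawning (-0.26 to -0.11), and ran from -0.11 to 0.14 for recrudescence minus pre-spawning. Differences of named probes that passed no test changed sign: for GT_EA516_an_as_sp_268 spawning minus pre-spawning was 0.035 without slide 3 and 0.0033 without spawning replicate 3 (from -0.38 to 0.0033 with single arrays left out), and for GT_EA516_un_as_sp_3217 recrudescence minus pre-spawning was -0.15 without slide 2 and -0.035 without recrudescence replicate 2 (from -0.035 to 0.28 with single arrays left out). Dim members limit post-spawning levels most, since 25 of 144 were not well above background on every post-spawning array.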
